A study of Bos taurus with 8 samples.

Results

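Cytosolic ribosomal proteins were examined in bovine testis as a group of 83 genes out of the 30983 in the gene table. Members were chosen by name, as genes whose symbol begins with RPL, RPS or RPLP followed by a number, together with RPSA. The ribosomal S6 kinases, RPS19BP1, RPL10 and RPL10L were left out by the same rule, and RPL41 and RPL39L were not analysed here. Of the members, 41 belong to the large subunit, 31 to the small subunit and 3 to the stalk of the large subunit, and these 75 genes are called the core members here. The other 8 are 7 paralogs, which are related genes that resemble a core member, and RPL15P, a gene that the deposited annotation lists as a pseudogene.

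The tissue came from Chinese Red Steppes cattle, in 2 groups. Mature testis (M) was taken from 3 bulls slaughtered at 24 months, and immature testis (I) from 3 calves castrated 1 day after birth, with 1 poly(A) library per animal. The labels name no treatment or engineered allele, and age cannot be told apart from how the tissue was obtained. The libraries held 14139087 to 15846257 counts. In bulk tissue, fewer cells of a type and less RNA per cell cannot be told apart.

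The ribosome joins a small subunit, which reads the mRNA, and a large subunit, which forms the peptide bond and releases the chain through an exit tunnel. Most of the proteins are present in a single copy per ribosome, and the genes are usually transcribed and translated in step. Their mRNAs begin with a run of pyrimidines, the TOP sequence, through which growth signals control their translation. In the testis, meiotic and haploid germ cells fill most of the adult tubule, whereas the tubule of the newborn holds Sertoli cells and early germ cells. Late germ cells store many mRNAs and stop transcription as the chromatin condenses, and mammals have several ribosomal protein copies that are used mainly in male germ cells.

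The labelled tissue was checked against cell type markers. All 10 spermatid markers, among them the protamine PRM1, were higher in mature testis, and their summed level was 9249 to 14760 CPM in mature and 6.29 to 6.56 CPM in immature libraries. All 9 spermatocyte markers were higher too, at 685 to 782 CPM in mature and 66.4 to 74.3 CPM in immature libraries. Of 10 Sertoli cell markers 7 were lower and 3 higher, with sums of 1554 to 1714 CPM in mature and 9297 to 12820 CPM in immature libraries. No marker of these 3 lists was at 0 in a whole group. All 6 endothelial markers were lower, at 59.5 to 67.0 CPM in mature and 282.5 to 437 CPM in immature libraries. Of 6 peritubular and muscle markers 5 were lower and 0 higher. Leydig cell markers were mixed, 3 lower and 1 higher of 8. They summed to 1547 to 2892 CPM in mature and 1910 to 3100 CPM in immature libraries. Leukocyte markers (6 lower, 2 higher) summed to 206.5 to 229 CPM in mature and 136 to 217 CPM in immature libraries. Spermatogonial markers (2 higher, 1 lower of 6) summed to 602 to 669 CPM in mature and 125 to 247 CPM in immature libraries. CPM are counts scaled to the library size after TMM adjustment. The part of these cell types in the results below was not tested.

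Ribosomal protein genes took a much smaller part of the mRNA of mature testis. The 83 members held 1.62%, 1.71% and 1.41% of all counts in mature replicates 1, 2 and 3, and 7.80%, 7.74% and 7.81% in immature replicates 1, 2 and 3. The groups lay far apart, and the immature libraries differed little from each other. The mean was 1.58% ± 0.157 in mature and 7.79% ± 0.0393 in immature testis (SD, n = 3 each), a difference of −6.21 percentage points. The two-sided exact permutation test over libraries gave p = 0.1, which is the smallest value that 3 against 3 libraries allow. The share does not depend on the scaling factors. The large subunit held 0.727% ± 0.0703 of the counts in mature and 3.48% ± 0.136 in immature testis. The small subunit held 0.678% ± 0.0710 in mature and 3.60% ± 0.0654 in immature testis, and the stalk held 0.145% ± 0.0184 in mature and 0.6595% ± 0.0410 in immature testis.

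**Figure D1:**
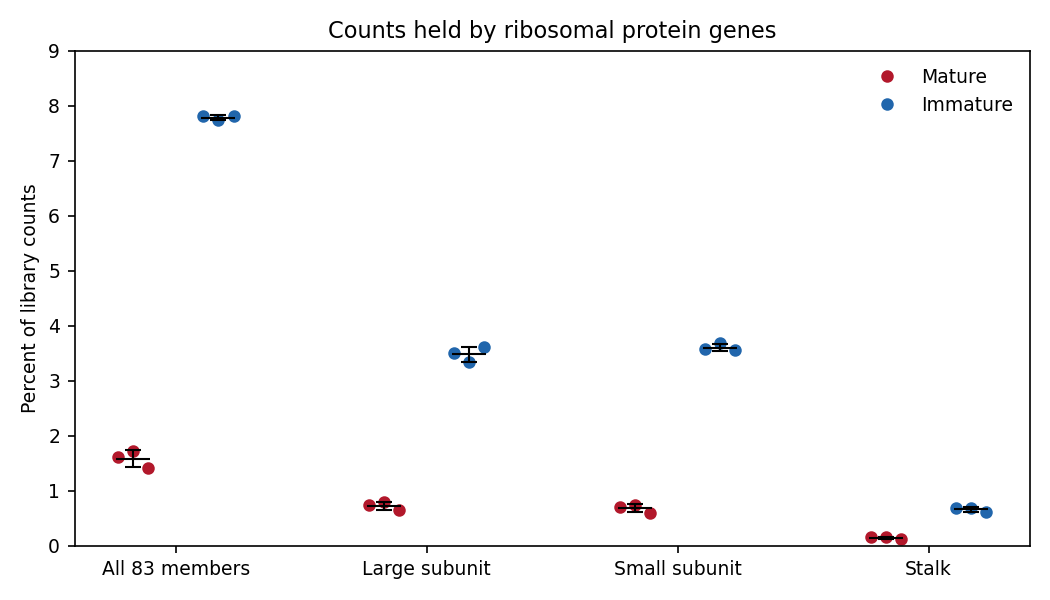
Percent of library counts held by all 83 ribosomal protein genes and by the core genes of the large subunit, the small subunit and the stalk, in mature (left) and immature (right) libraries. Points are libraries, and lines with bars are the mean and SD of 3 libraries. The mature libraries sat at 1.41% to 1.71% and the immature libraries at 7.74% to 7.81% for all members.

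Nearly all members were lower in mature testis. All 83 members passed the filter on low counts, and 76 of them were called lower and 1 higher in mature testis, where a call needed edgeR's quasi-likelihood test at a Benjamini-Hochberg adjusted p under 0.05 with an absolute log2 fold change above 1. Of all 19972 genes tested, 30.4% were called lower and 31.7% higher by the same rule. Of the 75 core members 72 were called lower and 0 higher, and by adjusted p alone 73 were lower and 0 higher, beside 39.3% and 39.1% of all genes. The 3 mature libraries all lay below the 3 immature libraries for 73 core members, and for 40.9% of all genes. No core member was higher at an unadjusted p under 0.05, nor was any called higher by DESeq2 or limma-voom.

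The core members had a median log2 fold change of −2.37, a level 5.16-fold lower in mature testis, while the median over all genes was −0.04. The quartiles of the core members were −2.72 and −1.93, and 11.55% of all genes were at or below the core median. The SD of the log2 fold changes was 0.80 over the core members and 2.80 over all genes tested. Large and small subunit genes had almost the same median, −2.37 and −2.38, and the stalk had −2.11. The ratio of summed small subunit to summed large subunit counts was −0.07, −0.11 and −0.13 on the log2 scale in mature replicates 1, 2 and 3 and 0.03, 0.14 and −0.02 in immature replicates 1, 2 and 3. The difference of −0.15 had an exact permutation p = 0.1, the smallest possible, and with medians in place of sums it was −0.14 with an exact permutation p = 0.2.

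**Figure D2:**
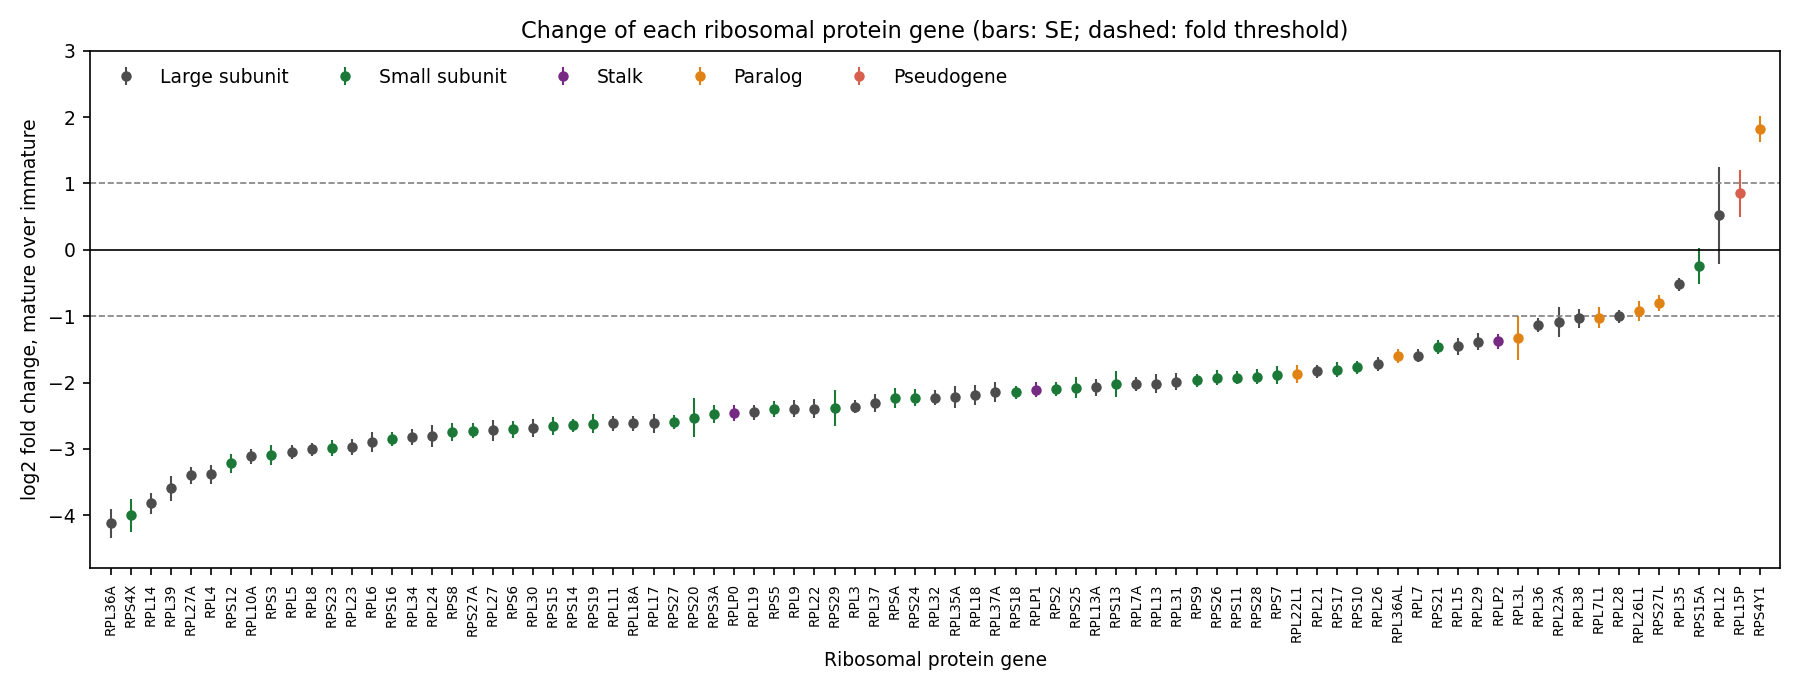
The log2 fold change of mature over immature testis for each of the 83 ribosomal protein genes, ordered by size, with bars of 1 SE and colours for the subunit or class. Dashed lines mark the fold threshold at 1 and −1. The points run from −4.12 for RPL36A to 1.82 for RPS4Y1, and 61 of the 75 core members lie between −3 and −1.

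Levels within a group were close for most members. The highest library of a group was at a median of 1.21 times the lowest in mature and 1.16 times in immature testis over the core members. Mature replicate 3 was the lowest mature library for 56 of 75 core members, and immature replicate 3 the highest immature library for 56. Mature replicate 2 was the highest mature library for 53. The summed spermatid markers were 9249, 12930 and 14760 CPM in mature replicates 1, 2 and 3, highest in replicate 3. Spermatocyte markers summed to 721, 685 and 782 CPM in the same order. Leydig cell markers summed to 2892, 2282 and 1547 CPM, lowest in replicate 3, and Sertoli cell markers to 1554, 1714 and 1575 CPM. The part of cell types in this spread was not tested. RPS29, a zinc-binding protein of the small subunit, had the widest spread among immature libraries, with 365, 415 and 277 CPM in mature and 1233, 2481 and 1785 CPM in immature replicates 1, 2 and 3. RPS20 was at 176, 94.0 and 150 CPM in mature and 910, 951 and 563 CPM in immature replicates 1, 2 and 3. Both genes were called lower, with no overlap between the groups.

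The stalk recruits the factors that drive elongation. RPLP0, its scaffold, had 567, 584 and 484 CPM in mature replicates 1, 2 and 3 and 2990, 3134 and 2832 CPM in immature replicates 1, 2 and 3. RPLP1, an acidic protein bound to RPLP0, had 642, 624 and 545 CPM in mature and 2514, 2722 and 2551 CPM in immature replicates 1, 2 and 3. RPLP2, its partner in the same dimer, had 344.5, 369 and 294 CPM in mature and 902, 881 and 839 CPM in immature replicates 1, 2 and 3. All 3 genes were lower in mature testis without overlap, and RPLP2 had the smallest fold change. Their log2 fold changes were −2.45 (SE 0.12), −2.11 (SE 0.11) and −1.38 (SE 0.11) for RPLP0, RPLP1 and RPLP2, all called in edgeR's quasi-likelihood test. RPSA, a small subunit protein also known as the laminin receptor precursor, averaged 490 ± 87.9 CPM in mature and 2297 ± 213 CPM in immature testis (n = 3 each), a log2 fold change of −2.23 (SE 0.15).

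The members with the highest CPM, a ranking of counts that also depends on transcript length, were RPL35, RPLP1, RPS2, RPLP0 and RPSA in mature testis and RPLP0, RPLP1, RPS2, RPL4 and RPL37 in immature testis. RPS2, which lies near the mRNA entry site, had a log2 fold change of −2.09 (SE 0.11), and RPL37 one of −2.31 (SE 0.13). RPL4, which lines the exit tunnel, averaged 229 ± 29.8 CPM in mature and 2380 ± 204 CPM in immature testis. It fell by 3.38 on the log2 scale (SE 0.14) and was among the 10 core members with the largest change.

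The members with the largest falls included the 3 whose genes are X-linked in mammals. RPL36A, a large subunit protein near the exit site for tRNA, had 11.8, 10.3 and 6.69 CPM in mature and 172, 153.5 and 177 CPM in immature replicates 1, 2 and 3. RPS4X, a small subunit protein, had 68.45, 73.9 and 39.0 CPM in mature and 938, 916 and 1054 CPM in immature replicates 1, 2 and 3. RPL39, a very small protein that lines the exit tunnel, had 37.6, 36.7 and 23.45 CPM in mature and 367, 388 and 427 CPM in immature replicates 1, 2 and 3. For all 3 genes the groups were widely separated, and mature replicate 3 was the lowest library. By edgeR's quasi-likelihood test RPL36A was at −4.12 ± 0.21 on the log2 scale (SE; adjusted p = 5.21e-07). RPS4X was at −4.00 ± 0.25 (adjusted p = 1.96e-06, edgeR) and RPL39 at −3.59 ± 0.20 (adjusted p = 7.13e-07, edgeR). The X chromosome is largely silent in spermatocytes of mammals, and the part of chromosomal position in these values was not tested.

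Other members fell by similar amounts. RPL14, a large subunit protein, had 115, 110 and 85.5 CPM in mature and 1294, 1483 and 1608 CPM in immature replicates 1, 2 and 3, a log2 fold change of −3.82 (SE 0.16, edgeR adjusted p = 1.66e-07). Its fall lay between those of RPS4X and RPL39. The other members with the largest changes were RPL27A (−3.40, SE 0.12), RPS12 (−3.22, SE 0.15), RPL10A, the protein of the L1 stalk (−3.11, SE 0.11), RPS3, a protein of the mRNA entry site that has also been linked to DNA repair (−3.09, SE 0.15), and RPL5 (−3.04, SE 0.11). RPL5 carries the 5S rRNA into the large subunit and binds MDM2 when ribosome assembly fails. RPL5 averaged 158 ± 9.68 CPM in mature and 1302 ± 63.0 CPM in immature testis.

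RPL35, which sits at the mouth of the exit tunnel, had the smallest log2 fold change of the core members above 50 CPM in some library. It had 572, 662 and 616 CPM in mature and 867, 841 and 947 CPM in immature replicates 1, 2 and 3, so the groups did not overlap. Its log2 fold change was −0.52 (SE 0.10, edgeR adjusted p = 0.00175), below the threshold on the fold. RPL28, a protein that baker's yeast lacks, averaged 351 ± 17.03 CPM in mature and 704 ± 24.75 CPM in immature testis. RPL38, known in mouse for its part in the translation of Hox mRNAs, averaged 261.5 ± 32.1 CPM in mature and 535 ± 72.4 CPM in immature testis. RPL28 (−1.003, SE 0.10) and RPL38 (−1.03, SE 0.14) lay at the fold threshold and, in that order, were no longer called with DESeq2 (−0.91 and −0.94), without mature replicate 1 (−0.91 and −0.95), without mature replicate 3 (−0.94 and −0.90) or without immature replicate 3 (−0.99 and −0.94). Relative log expression factors (−0.91 and −0.94), no filter (−0.94 and −0.97) and glmTreat also ended both calls, and TMM factors computed without the members that of RPL28 (−0.98).

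Differences among members do not depend on the scaling when each is set against the median of the core members in the same library. RPL35 was 1.65, 1.775 and 1.76 above that median on the log2 scale in mature replicates 1, 2 and 3, and −0.07, −0.12 and −0.08 from it in immature replicates 1, 2 and 3. RPL28 was 0.92 above the median on average in mature testis and −0.42 from it in immature testis. RPL36A was −3.955, −4.23 and −4.76 from the median in mature and −2.40, −2.58 and −2.50 from it in immature replicates 1, 2 and 3. RPS4X averaged −1.67 in mature and 0.04 in immature testis by the same measure. By this measure RPL36A and RPS4X lost ground against the other members, and RPL35 and RPL28 gained it. The members shown were chosen by their fold changes in the same libraries, so these directions followed from that choice.

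**Figure D3:**
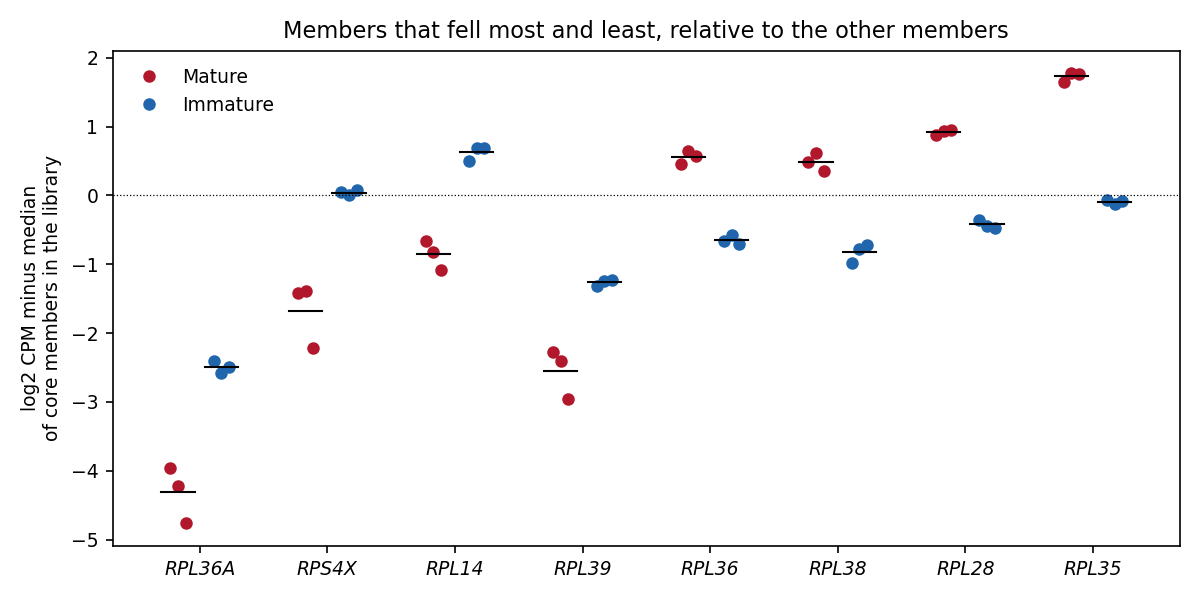
The log2 CPM of 8 core members minus the median of all core members in the same library, for 4 members with the largest and 4 with the smallest fall among those above 50 CPM in some library, in mature (left) and immature (right) libraries. Points are libraries and lines are group means. RPL36A, RPS4X, RPL14 and RPL39 were lower relative to the median in mature testis, by 1.28 to 1.82, and RPL36, RPL38, RPL28 and RPL35 were higher relative to it, by 1.20 to 1.82.

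Paralogs took a larger part of the members' reads in mature testis. Of the 7 paralogs 4 were called lower and 1 higher, beside 30.4% and 31.7% of all genes, with a median log2 fold change of −1.02. Together they made up 1.92%, 1.535% and 2.07% of member counts in mature replicates 1, 2 and 3 and 0.481%, 0.494% and 0.545% in immature replicates 1, 2 and 3. The mean share was 1.84% ± 0.275 in mature and 0.506% ± 0.0337 in immature testis, with an exact permutation p = 0.1, the smallest possible. Much of this share was RPS4Y1. Without it the other 6 paralogs made up 0.873% ± 0.0538 in mature and 0.449% ± 0.0239 in immature testis, with the same exact permutation p = 0.1.

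RPS4Y1 was the member that rose. It encodes a copy of the small subunit protein S4, and its symbol is that of a Y-linked gene of primates. Among reference genes of the cattle assembly ARS-UCD2.0, which held all 83 members, 0 members were on Y. The 3 on X were RPL36A, RPL39 and RPS4X, so RPS4Y1 was on neither sex chromosome there. RPS4Y1 had 164, 126 and 174 CPM in mature and 34.9, 42.6 and 53.7 CPM in immature replicates 1, 2 and 3, with no overlap. The log2 fold change was 1.82 (SE 0.19, edgeR adjusted p = 3.45e-05) and ran from 1.62 to 1.99 over the alternatives, all of them called. RPS4X, its parent, fell, and the balance of the pair turned round. RPS4Y1 reads were 240%, 170% and 445% of RPS4X reads in mature replicates 1, 2 and 3, and 3.72%, 4.65% and 5.10% in immature replicates 1, 2 and 3. On the log2 scale the ratio averaged 1.39 ± 0.70 in mature and −4.49 ± 0.23 in immature testis (SD, n = 3 each). Another 14 loci that the annotation describes as S4-like held 16, 8 and 7 counts in mature and 62, 40 and 64 counts in immature replicates 1, 2 and 3.

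RPL36AL is a second gene for the protein L36a, outside the X chromosome in human. RPL36AL had 25.5, 25.6 and 24.97 CPM in mature and 74.3, 75.2 and 81.1 CPM in immature replicates 1, 2 and 3. It was called lower in mature testis (log2 fold change −1.60, SE 0.11), where RPL36A was at −4.12. Reads of RPL36AL were 216.5%, 247% and 373% of those of RPL36A in mature replicates 1, 2 and 3, and 43.2%, 49.0% and 45.8% in immature replicates 1, 2 and 3. The log2 ratio was 1.44 ± 0.41 in mature and −1.12 ± 0.09 in immature testis. RPL36AL and RPL36A are similar enough that the counting may have shared reads between them.

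RPS27L, a relative of RPS27 that p53 induces in human cells, averaged 28.8 ± 0.633 CPM in mature and 50.1 ± 2.74 CPM in immature testis. Its log2 fold change of −0.80 (SE 0.11) passed on adjusted p alone. RPS27 itself fell by 2.59 on the log2 scale (SE 0.11), and RPS27L reads were 20.3% ± 1.90 of RPS27 reads in mature and 5.83% ± 0.0864 in immature testis. RPL26L1 is a near copy of RPL26. Its log2 fold change was −0.92 (SE 0.15) against −1.72 (SE 0.11) for RPL26, and its reads were 4.79% ± 0.386 of those of RPL26 in mature and 2.765% ± 0.242 in immature testis. Both RPL26L1 (−1.12) and RPS27L were called lower with upper-quartile factors.

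RPL22L1, a relative of RPL22, had the smallest shift against its parent. It fell by 1.87 on the log2 scale (SE 0.14), and RPL22, a protein not essential for translation in mouse, by 2.39 (SE 0.14). RPL22L1 reads were 49.9%, 57.3% and 43.4% of RPL22 reads in mature and 36.5%, 36.1% and 32.95% in immature replicates 1, 2 and 3. RPL7L1, a factor of large subunit assembly, was at −1.02 (SE 0.16) and RPL7 at −1.59 (SE 0.10). The call of RPL7L1 was lost without mature replicate 2 (−0.99), mature replicate 3 (−0.91) or immature replicate 3 (−0.85), and with DESeq2 (−0.93), relative log expression factors (−0.93), TMM factors computed without the members, no filter (−0.95) or glmTreat. RPL3L, which replaces RPL3 in heart and skeletal muscle, was scarce, at 1.44, 2.62 and 2.48 CPM in mature and 6.63, 5.77 and 4.04 CPM in immature replicates 1, 2 and 3. It was called lower (−1.33, SE 0.33) except by glmTreat. RPL3 was also called lower (−2.37, SE 0.10).

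For the 7 pairs the log2 ratio of paralog to parent was higher in mature testis on average, by 0.51 for RPL22L1, 0.59 for RPL7L1, 0.795 for RPL26L1, 1.03 for RPL3L, 1.80 for RPS27L, 2.56 for RPL36AL and 5.88 for RPS4Y1. Each pair had an exact permutation p = 0.1, the smallest possible for 3 against 3 libraries, and 0.1 after adjustment over the 7 pairs. These ratios share the fall of the parents and are not independent of each other.

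**Figure D4:**
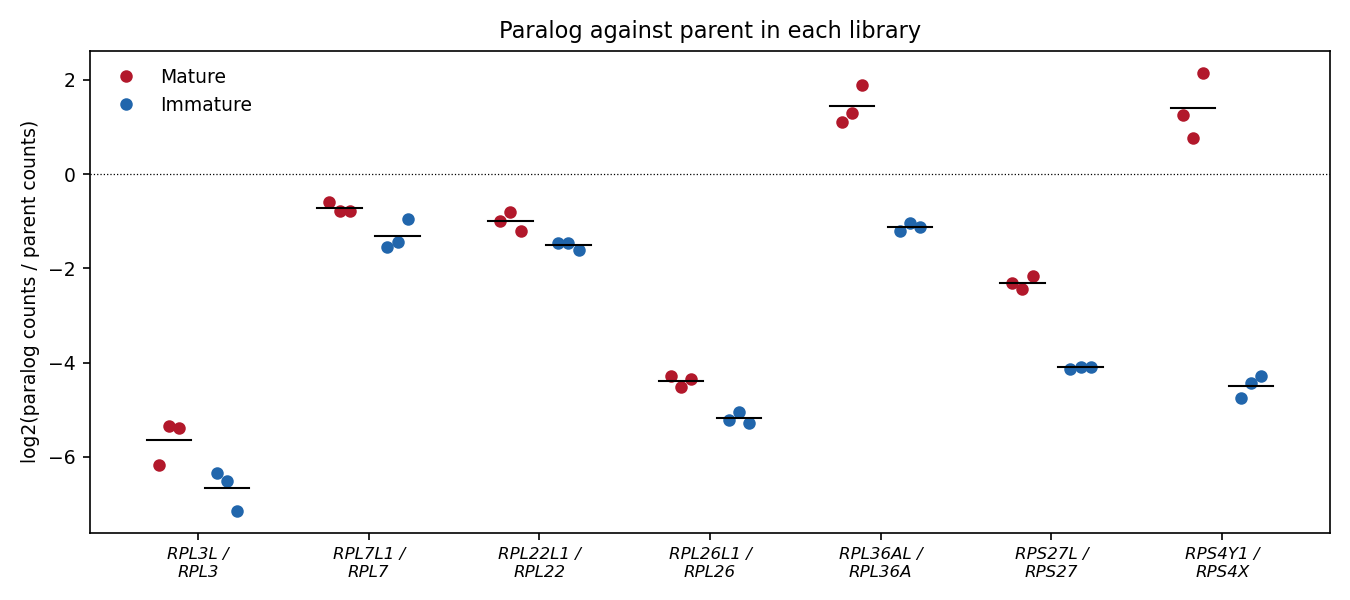
The log2 ratio of paralog counts to parent counts, with 0.5 added to each count, in mature (left) and immature (right) libraries for 7 pairs. Points are libraries and lines are group means. The RPS4Y1 and RPS4X pair moved most, to 1.39 in mature testis against −4.49 in immature testis.

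Low values of RPS15A, RPL17 and RPS13 went with reads placed at other loci. The annotation describes 189 further loci as ribosomal protein genes, of which 179 are of a type other than mRNA, and 166 of the 189 name a protein of a member. The counts of the further loci, which are rows of their own, came to 3.46% ± 0.502 of the members' counts in mature and 3.48% ± 0.2185 in immature testis. RPS15A had 52, 37 and 43 counts in mature and 45, 50 and 61 in immature replicates 1, 2 and 3, and was not called (log2 fold change −0.24, SE 0.27, edgeR adjusted p = 0.432). LOC616893, described as a pseudogene of the same protein, had 3307, 3960 and 2353 counts in mature and 8205, 11988 and 11867 in immature replicates 1, 2 and 3. The sum of RPS15A and its 5 further loci was lower in mature testis (−1.73, SE 0.21, edgeR adjusted p = 9.06e-05). The further loci held 99.3% of that sum, so its value is theirs and not that of the RPS15A row.

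The further loci held more counts than the member for RPS15A, RPL17 and RPS13, and under 1% of the sum of both for 37 of the 60 members with such loci. Summed with these loci, RPL17 was at −3.15 (SE 0.12) in place of −2.61 (SE 0.14), and RPS13 at −2.94 (SE 0.15) in place of −2.02 (SE 0.20). RPL23A, a protein at the mouth of the exit tunnel, had a log2 fold change of −1.09 (SE 0.23), was not called without immature replicate 3 (−0.98), with relative log expression factors or by glmTreat, and summed with its further loci it was at −0.40 (edgeR adjusted p = 0.117) and no longer called. RPL36A was at −3.72 (SE 0.19) when summed, and RPL39 and RPL14 kept their values of −3.59 and −3.82. RPL12, a protein at the base of the stalk, had 4.57, 23.55 and 3.45 CPM in mature and 5.69, 6.74 and 9.60 CPM in immature replicates 1, 2 and 3. It was not called, at 0.52 (SE 0.73), and without mature replicate 2 it was at −0.84. RPL15P, the pseudogene, had 9.27, 5.57 and 4.41 CPM in mature and 2.41, 4.28 and 3.97 CPM in immature replicates 1, 2 and 3, and was not called (0.85, SE 0.36), except without mature replicate 3 (1.12).

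RACK1 and FAU, ribosome parts outside the naming rule, were also called lower. RACK1, a signaling scaffold on the small subunit, had 466, 524 and 425 CPM in mature and 2733, 2770 and 3062 CPM in immature replicates 1, 2 and 3, a log2 fold change of −2.60 (SE 0.12). FAU, whose product releases the small subunit protein S30, averaged 215 ± 10.9 CPM in mature and 446 ± 16.7 CPM in immature testis, at −1.05 (SE 0.10), and was not called by DESeq2 (−0.96).

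Most other genes of elongation and TOP mRNAs were lower in mature testis. Of the 19 genes listed 13 were called lower and 0 higher, with a median log2 fold change of −1.75, beside 30.4% lower and 31.7% higher over all genes. HNRNPA1, a splicing regulator, averaged 108 ± 5.14 CPM in mature and 937 ± 56.0 CPM in immature testis, at −3.12 (SE 0.11). EEF1A1, the factor that brings tRNA to the ribosome, was at −2.38 (SE 0.17). VIM, the intermediate filament protein vimentin, was at −2.53 (SE 0.21) and TPT1 at −2.35 (SE 0.38). TPT1 averaged 5.60 CPM in mature testis and had 13.4, 32.5 and 39.6 CPM in immature replicates 1, 2 and 3. Levels of PABPC1, which binds poly(A) tails, were 2308 ± 140 CPM in mature and 1529 ± 66.3 CPM in immature testis, at 0.59 (SE 0.10), higher by adjusted p alone.

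Most genes that build ribosomes were not called with the fold threshold. Of 79 ribosome biogenesis factors 14 were called lower and 8 higher, with a median of −0.06, both smaller shares than the 30.4% and 31.7% of all genes. By adjusted p alone 28 were lower and 27 higher, beside 39.3% and 39.1% of all genes, so many differed by less than the fold threshold. UTP14A, an X-linked factor of small subunit assembly, averaged 12.6 ± 2.86 CPM in mature and 200 ± 8.18 CPM in immature testis, at −3.99 (SE 0.18). RRP1B, a nucleolar protein, averaged 363 ± 32.4 CPM in mature and 46.5 ± 6.08 CPM in immature testis, at 2.96 (SE 0.14). BMS1, a GTPase of the small subunit processome, rose (1.96, SE 0.14), and HEATR3, a chaperone of RPL5 and RPL11, fell (−2.25, SE 0.22). Of 22 genes of RNA polymerase I and its factors 4 were lower and 3 higher, with a median of −0.17, again smaller shares than over all genes (30.4% and 31.7%). By adjusted p alone 9 of these were lower and 7 higher. UBTF, which opens ribosomal DNA for transcription, was at −1.605 (SE 0.11), TAF1D at −1.75 (SE 0.17), CD3EAP at −1.96 (SE 0.24), POLR1D, a subunit shared with RNA polymerase III, at 1.64 (SE 0.18), and GTF3A, kept in this list although it serves RNA polymerase III at the 5S rRNA genes, at 1.57 (SE 0.12).

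Of 19 growth regulators 6 were called lower and 5 higher, with a median of −0.43, close to the 30.4% and 31.7% of all genes. MYC, which drives ribosome production, had 2.88, 4.70 and 1.93 CPM in mature and 46.1, 43.5 and 142 CPM in immature replicates 1, 2 and 3, with the highest level in immature replicate 3 (−4.60, SE 0.63, edgeR adjusted p = 0.00053). MYCN (−3.56, SE 0.28), MYCL (−2.43, SE 0.52) and the S6 kinase RPS6KB2 (−2.30, SE 0.16) were lower in mature testis. MYCL was scarce, at 0.41 CPM in mature and 2.27 CPM in immature testis on average. MTOR (1.59, SE 0.14) and EIF4E, the cap-binding protein (1.61, SE 0.20), were higher in mature testis. Among 14 genes of ribosome dormancy and rescue 1 was lower and 5 were higher, with a median of 0.43, beside 30.4% lower and 31.7% higher over all genes. HABP4, which holds idle ribosomes in the frog and fish egg, had 291, 336 and 364 CPM in mature and 37.4, 33.9 and 34.7 CPM in immature replicates 1, 2 and 3, at 3.22 (SE 0.13). CCDC124 (1.47, SE 0.13) and EIF5A2 (1.48, SE 0.32) rose and IFRD2 (−1.485, SE 0.15) fell.

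Ribosomal proteins of the mitochondrion, which form a separate ribosome, were mostly not called. Of 77 genes 6 were called lower and 17 higher, both below the shares of all genes (30.4% and 31.7%). Their median log2 fold change was 0.25. By adjusted p alone 22 were lower and 36 higher, beside 39.3% and 39.1% of all genes. Without the fold threshold the share that was higher was thus above that of all genes. MRPL42 rose most, with 132 ± 7.25 CPM in mature and 16.1 ± 1.91 CPM in immature testis (3.04, SE 0.13), followed by MRPS31 (2.27, SE 0.16), MRPS17 (2.20, SE 0.14) and MRPL1 (2.10, SE 0.16). MRPL10 (−1.60, SE 0.12) and MRPS27 (−1.72, SE 0.38) fell. MRPS27 was scarce, at 0.61 CPM in mature and 2.04 CPM in immature testis on average. No test of the difference between these lists was made.

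**Figure D5:**
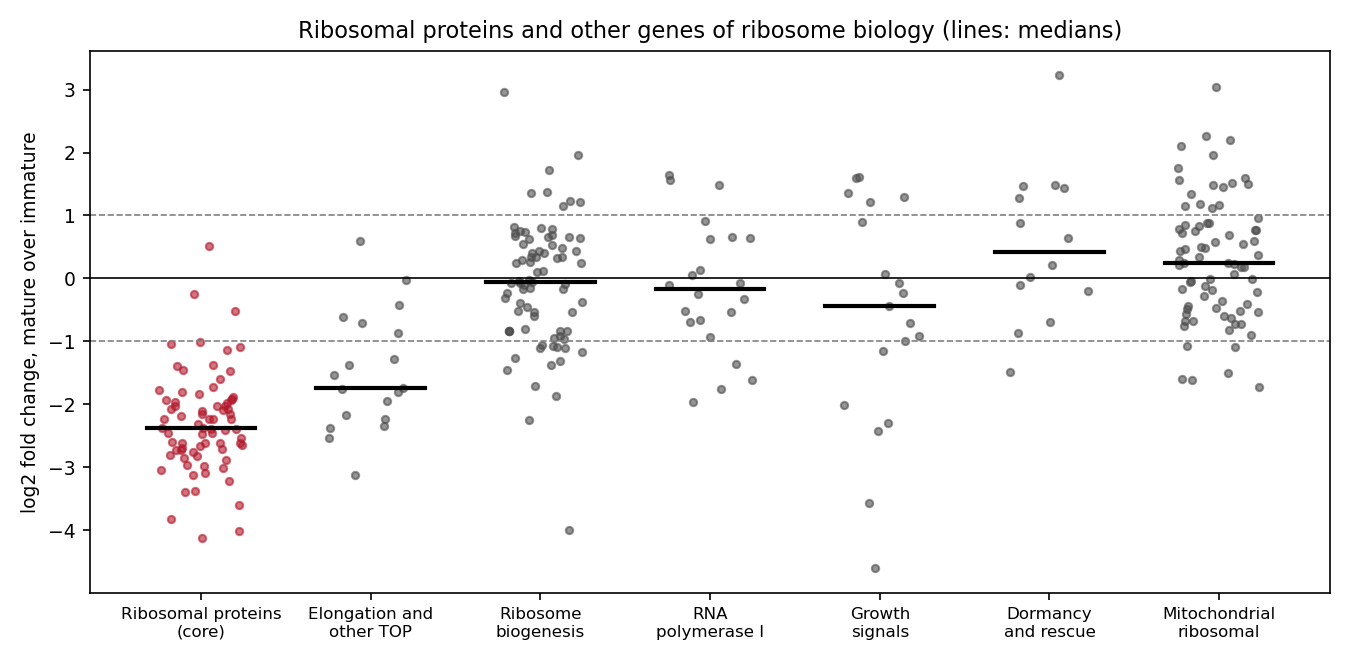
The log2 fold change of mature over immature testis for the core ribosomal proteins and 6 other gene lists of ribosome biology. Points are genes, black lines are medians and dashed lines mark the fold threshold. The medians were −2.37 for core ribosomal proteins, −1.75 for elongation and other TOP genes, and between −0.43 and 0.43 for the other 5 lists.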

How the data were processed

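The authors deposited raw counts per gene for 6 mRNA libraries, after read quality checks (Fast-QC) and Hisat2 alignment to the bovine assembly Btau_5.0.1. The sources used here do not name the aligner version, read counter, strand setting or annotation, and near-identical loci may share counts. The miRNA tables and the authors' own comparison tables, with fold changes and EBSeq FDR values, were not used. Symbols were used as deposited, and no sequences were used.

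Counts were fitted for all genes passing filterByExpr in edgeR 4.0.16 (R 4.3.3; TMM, robust quasi-likelihood, group only), with Benjamini-Hochberg adjustment over 19972 genes. Standard errors were taken from the fold change and its F statistic. Shares and within-library ratios were tested by two-sided exact permutation over libraries (scipy 1.17.1). The study's thresholds were kept, with edgeR in place of EBSeq. DESeq2 1.42.0, limma 3.58.1 (voom), other scalings and filters, glmTreat, a replicate block and each left-out library were alternatives. Summing members with further loci and leaving RPS4Y1 out of the paralogs were added after seeing the data. The fit was tested on simulated data in which few genes changed, equally up and down. That setting does not test the scaling where many genes change.

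The members, lists and tests were chosen with earlier results of these data known. Genes were named by rule: paralogs and parents, stalk proteins, RPSA, FAU and RACK1, the 10 core members with the largest called change, the 5 with the smallest change, the 5 with the highest CPM per group, and up to 4 called genes per list plus up to 2 in the other direction. RPL36, RPL17, RPS13, RPL23A, RPS20, RPS29, RPL15P and PABPC1 were added after their values were seen, and 1 gene that the rule names is not reported here. Libraries of a group differed far beyond counting error (chi-square per degree of freedom 9.60 to 38.8), and p-values measure the spread between 3 animals per age.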

Additional observations from a re-analysis of the deposited data

How the results depend on the processing

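The median log2 fold change of the members was −2.22 and stayed negative under every alternative run. It moved to −2.43 with upper-quartile factors, which put the median of all genes at −0.24 in place of −0.04. Without mature replicate 3 or immature replicate 3 it moved to −2.13 each. It ran from −2.27 to −2.13 when libraries were left out. The count of members called lower ran from 70 (glmTreat) to 79 (no fold threshold). When each library was left out the count called higher ran from 1 to 2, with RPL15P added without mature replicate 3. DESeq2 called 1 ribosome part outside the rule (RACK1) lower, against 2 with edgeR. Same-numbered libraries of the 2 groups did not deviate together (correlations −0.03, −0.02 and −0.01), and with the replicate number as a block 76 members were lower and 1 higher. The difference in share stayed between −6.27 and −6.12 percentage points without any 1 library. With 3 animals a group, exact tests cannot go below p = 0.1.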

Other observations

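Of the 57 further ribosomal protein loci that passed the filter on low counts, 42 were called lower and 5 higher in mature testis, beside 30.4% and 31.7% of all genes. LOC101903974, described as L21-like, had 54, 79 and 52 counts in mature and 2, 2 and 1 counts in immature replicates 1, 2 and 3. LOC100336827, described as SA-like, had 47, 49 and 29 counts in mature and 3, 4 and 5 counts in immature replicates 1, 2 and 3. LOC785523, described as L36-like, had 17, 25 and 18 counts in mature testis and 0 counts in each immature library. The members of the same names, RPL21, RPSA and RPL36, were all called lower, RPL36 near the fold threshold (−1.13, SE 0.11).

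Single libraries stood out at loci of ribosomal proteins. Mature replicate 2 held 351 counts of RPL12, against 73 and 50 in mature replicates 1 and 3. It also held 263 counts of LOC513039, an S16 pseudogene, against 3 and 10, and 1261 counts of LOC613970, an S3a pseudogene, against 392 and 314. RPS16 had 2856, 2883 and 2631 counts in mature replicates 1, 2 and 3, highest in replicate 2 by a small margin, and RPS3A had 3917, 2909 and 3201 counts, lowest in replicate 2. The cause was not tested.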
